A study of Mus musculus with 13 samples.

Results

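The lysosomal cathepsins and legumain are a set of 10 protease genes, *Ctsa*, *Ctsb*, *Ctsc*, *Ctsd*, *Ctse*, *Ctsh*, *Ctsl*, *Ctss*, *Ctsz*, and *Lgmn*, which were followed across 4 genotypes of mouse bone marrow (BM) progenitors. They were chosen by name, with earlier results of these data known, and all 10 were found among the 54838 genes of the count table. Cathepsins are proteases that cells make as inactive proenzymes, carry to the lysosome mainly by the mannose-6-phosphate route, and activate at acid pH. They degrade proteins taken up or recycled by the cell and, in monocytes, macrophages, and dendritic cells, they also trim the invariant chain (*Cd74*) and antigens for loading on MHC class II and cleave endosomal Toll-like receptors (TLRs). The set covers 5 kinds of protease. *Ctsb*, *Ctsl*, and *Ctss* encode cysteine endopeptidases of the papain family, *Ctsc*, *Ctsh*, and *Ctsz* encode exopeptidases of the same family, *Ctsd* and *Ctse* encode aspartic endopeptidases, *Ctsa* encodes a serine carboxypeptidase that also protects lysosomal glycosidases, and *Lgmn* encodes the asparaginyl endopeptidase legumain, which processes several of the cathepsins.

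RNA was sequenced from sorted Lin- cKit+ BM cells, the fraction without mature lineage markers that holds stem and progenitor cells (HSPCs), with 50000 cells per mouse. All mice carried *Mx1-Cre*, a recombinase gene under an interferon-responsive promoter that is active in blood-forming cells and in other tissues. The 3 control mice carried no other allele, the 3 p53mut mice also carried 1 Cre-activated *p53* R172H allele, the 3 NrasG12D mice 1 Cre-activated *Nras* G12D allele, and the 4 NPmut mice both. The genotype field of the NrasG12D mice spells the allele G21D, whereas their titles and descriptions give G12D, which was used here. Control, p53mut, and NrasG12D mice had been injected 3 times with 100 µg pI:pC, a double-stranded RNA that induces interferon, from about 6 weeks of age and were matched in age. The NPmut mice had received no pI:pC and were moribund, so that genotype, injections, and stage of disease cannot be told apart in any comparison with NPmut mice.

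Library totals ran from 12576174 (NPmut mouse 4) to 29124022 (NPmut mouse 2) counts. *Kit*, the gene of the sorting marker, had 505 to 568 CPM (counts scaled to a common library size) in control, 498 to 712 in p53mut, 529 to 631 in NrasG12D, and 288 to 450 in NPmut mice, and *Cd34*, another progenitor marker, had 233 to 308 CPM in control and 196 to 366 in NPmut mice. *Cd79a* of B cells and *Cd3e* of T cells stayed at or under 0.59 CPM in every mouse. Reads on olfactory and vomeronasal receptor genes, which these cells are not known to use, took 103 to 191 CPM in control, 58.9 to 138 in p53mut, 37.8 to 44.4 in NrasG12D, and 17.5 to 57.3 in NPmut mice. CPM are scaled here with TMM factors, which correct library sizes for composition, and compare mice. RPKM, which divide such a level by the exonic length in kilobases and use library totals without those factors, compare genes.

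In control mice, *Ctsz* had the highest level per length of the 10 genes, at 63.7 ± 7.37 RPKM (SD, n = 3), and *Lgmn* the lowest, at 0.445 ± 0.123. Between them in RPKM came *Ctse* (33.1 ± 12.8), *Ctsd* (26.2 ± 3.93), *Ctsb* (19.9 ± 1.76), *Ctsa* (13.6 ± 0.173), *Ctss* (9.49 ± 2.12), *Ctsc* (5.79 ± 0.732), *Ctsh* (3.36 ± 0.256), and *Ctsl* (2.04 ± 0.259). The mice of neighbors in this order did not overlap, except those of *Ctse* and *Ctsd*. In NrasG12D mice *Ctss* ranked below *Ctsz*, *Ctsd*, and *Ctse*, at 19.1 ± 3.95 RPKM, with mice overlapping those of *Ctse* above it and *Ctsb* below it. In NPmut mice *Ctss* stood second, at 54.3 ± 19.1 RPKM (n = 4), behind *Ctsz* at 109 ± 33.9, and the ranges of all neighbors overlapped except those of *Ctsc* and *Ctsl*.

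The summed level of the 10 genes was 168, 193, and 172 RPKM in the control mice, 166, 192, and 179 in the p53mut mice, 171, 178, and 188 in the NrasG12D mice, and 269, 372, 275, and 207 in the NPmut mice. Every NPmut mouse was thus above every other mouse. *Ctss* made up 4.09% to 6.41% of this sum in control, 6.82% to 7.61% in p53mut, 8.52% to 11.8% in NrasG12D, and 15.5% to 21% in NPmut mice, and these 4 ranges did not overlap. The papain-like endopeptidases took 17.7% ± 0.9 of the sum in control and 29.8% ± 1.81 in NPmut mice, and the aspartic endopeptidases 33.4% ± 4.22 and 16.2% ± 5.2. These shares are descriptions and were not tested.

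**Figure D1:**
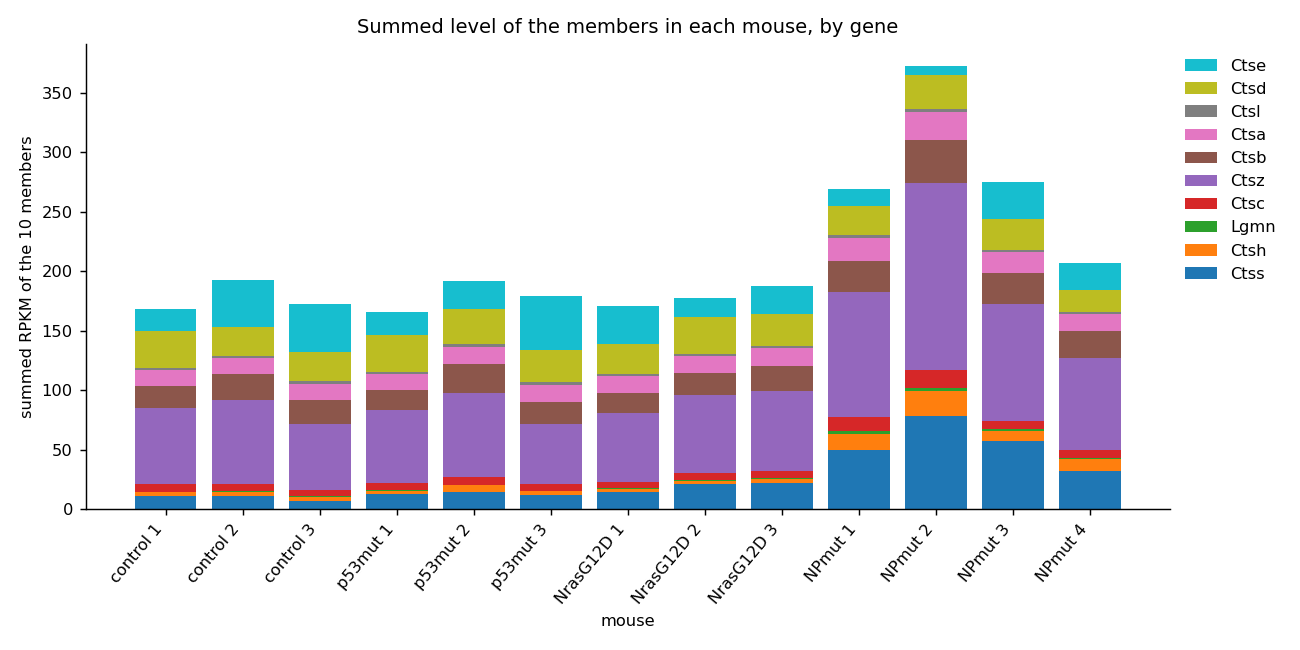
Stacked bars give the RPKM of each of the 10 genes in each mouse (y axis, summed RPKM; x axis, the 13 mice by group). The bars of the 4 NPmut mice reach 207 to 372 RPKM, those of the other mice 166 to 193, and the *Ctss* segment at the bottom is tallest in NPmut mice.

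Stretches upstream of 3 RefSeq starts are shown, for *Ctss*, which had the largest fold change in NPmut mice, *Ctsc*, which changed more moderately, and *Ctsd*, which was not called. RefSeq (GRCm38.p6) gave promoter windows for 7 of the 10 genes (none for *Ctsb*, *Ctse*, and *Ctsh*). They were searched on both strands for CACGTG, the E-box core bound by TFEB and its relatives, which 7.15% of all 32851 windows of 300 bases hold, for its longer form TCACGTG, which overlaps it (3.77%), for GAGGAAG, a motif bound by the myeloid factor PU.1 (13.6%), and for the spaced GAAA pair of interferon-response elements, with any 2 bases between (3.44%), the last added after the windows had been read. The 7 genes have 9 windows, since *Ctsa* and *Lgmn* have more than one, and the shares are per window. CACGTG was found for 4 of the 7 genes (*Ctsa*, *Ctsd*, *Ctsl*, and *Lgmn*, in 4 of 9 windows), TCACGTG for 3 (*Ctsa*, *Ctsd*, and *Lgmn*), GAGGAAG for 2 (*Ctsc* and *Ctss*), the spaced pair for 1 (*Ctss*), and none of them for *Ctsz*. The called *Ctsa* and *Lgmn* hold an E-box like the uncalled *Ctsd* and *Ctsl*. GAGGAAG and the spaced pair were found only for called genes, and the called *Ctsz* holds no match. *Ctsd* and *Ctsl* are the only uncalled genes with a window, too few to set the motifs against the calls, and this was not tested. Each sequence runs 5′ to 3′ along the gene's strand, with matches to the motifs in capitals. That of *Ctss* covers chr3:95526686-95526791 on the plus strand and ends 6 bases past the start, with the spaced pair beginning 21 bases before the start and the PU.1 motif, on the other strand, beginning at the last base before it. That of *Ctsc* covers chr7:88277835-88278084 on the plus strand with 2 PU.1 motifs on the other strand, and that of *Ctsd* covers chr7:142387828-142388077 on the minus strand with 2 E-boxes. The RefSeq start of *Ctsd* lies inside the longer gene model of GENCODE whose coordinates are given below, so that most of this stretch, with the nearer E-box, falls within that model.
Ctss: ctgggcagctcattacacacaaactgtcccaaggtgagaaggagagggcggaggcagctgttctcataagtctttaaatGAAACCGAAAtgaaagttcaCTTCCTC
Ctsc: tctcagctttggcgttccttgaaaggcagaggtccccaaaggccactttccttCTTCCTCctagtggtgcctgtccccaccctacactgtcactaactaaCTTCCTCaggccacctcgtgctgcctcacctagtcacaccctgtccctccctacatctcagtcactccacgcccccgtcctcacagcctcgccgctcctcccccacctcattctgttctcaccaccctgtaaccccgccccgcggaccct
Ctsd: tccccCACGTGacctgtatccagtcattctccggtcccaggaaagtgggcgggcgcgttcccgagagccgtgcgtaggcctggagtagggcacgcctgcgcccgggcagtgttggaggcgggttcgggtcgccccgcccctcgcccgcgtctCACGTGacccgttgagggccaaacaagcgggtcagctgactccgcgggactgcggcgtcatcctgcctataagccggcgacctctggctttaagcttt

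NPmut mice were compared with control mice, which asks how the genes differed in the leukemia that carries both mutations. Of the 10 genes, 7 were higher and 0 lower in NPmut mice, where 5.38% of all 17795 genes tested were called higher and 5.54% lower. Since the 10 were chosen with earlier results known, setting them beside these shares is a description and not a test. The 7 were *Ctss*, *Ctsh*, and *Lgmn*, each past 2-fold (2.32% of all genes were called higher at this fold), and *Ctsc*, *Ctsz*, *Ctsb*, and *Ctsa*, which rose by less. In all 7, every NPmut mouse lay above every control mouse, which held for 10.4% of all genes tested. *Ctsl*, *Ctsd*, and *Ctse* were not called. In bulk libraries, more cells of a type and more RNA of a gene per cell cannot be told apart. The median log2 fold change was 0.77 over the 10 genes and 0.01 over all genes tested. Calls have an adjusted p-value under 0.05 in edgeR's quasi-likelihood test with Benjamini-Hochberg adjustment over all genes tested, and every adjusted p-value below is from this test unless another is named. All 10 genes passed the filter on low counts.

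The 7 calls did not hold alike. *Ctss* and *Ctsh* stayed called in each of the 13 fits that left out 1 library and in the other alternatives run, with log2 fold changes of 2.36 to 3.52 and 1.75 to 2.96. Without control mouse 1 or control mouse 3 these 2 were the only calls, without control mouse 2 there were 3, with *Ctsz*, and with only control and NPmut libraries in the fit there were again 2. Calls over all genes fell too. In place of 958, the genes called higher were 595, 520, and 356 without control mouse 1, 2, or 3, and 507 with only the compared groups. Without control mouse 1, the log2 fold changes of the lost calls were 0.59 for *Ctsa* and *Ctsb*, 1.04 for *Ctsc*, 0.94 for *Ctsz*, and 1.94 for *Lgmn*, and without control mouse 3 they were 0.56, 0.59, 0.83, 0.81, and 2.18 in the order *Ctsa*, *Ctsb*, *Ctsc*, *Ctsz*, and *Lgmn*, with wider standard errors than in the fit of all libraries. With the receptor reads as a covariate, 4 were called (*Ctsb*, *Ctsh*, *Ctss*, and *Ctsz*), where 492 of all genes were called higher. The receptor reads of control and NPmut mice did not overlap (103 to 191 and 17.5 to 57.3 CPM). This fit therefore cannot separate the reads from the group, and its log2 fold changes rest on extrapolation. They were 1.12 for *Ctsb*, 1.64 for *Ctsz*, 0.87 for *Ctsa*, 1.36 for *Ctsc*, and 2.6 for *Lgmn*. The standard errors of the 3 lost calls grew to 0.239, 0.473, and 0.945.

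**Figure D2:**
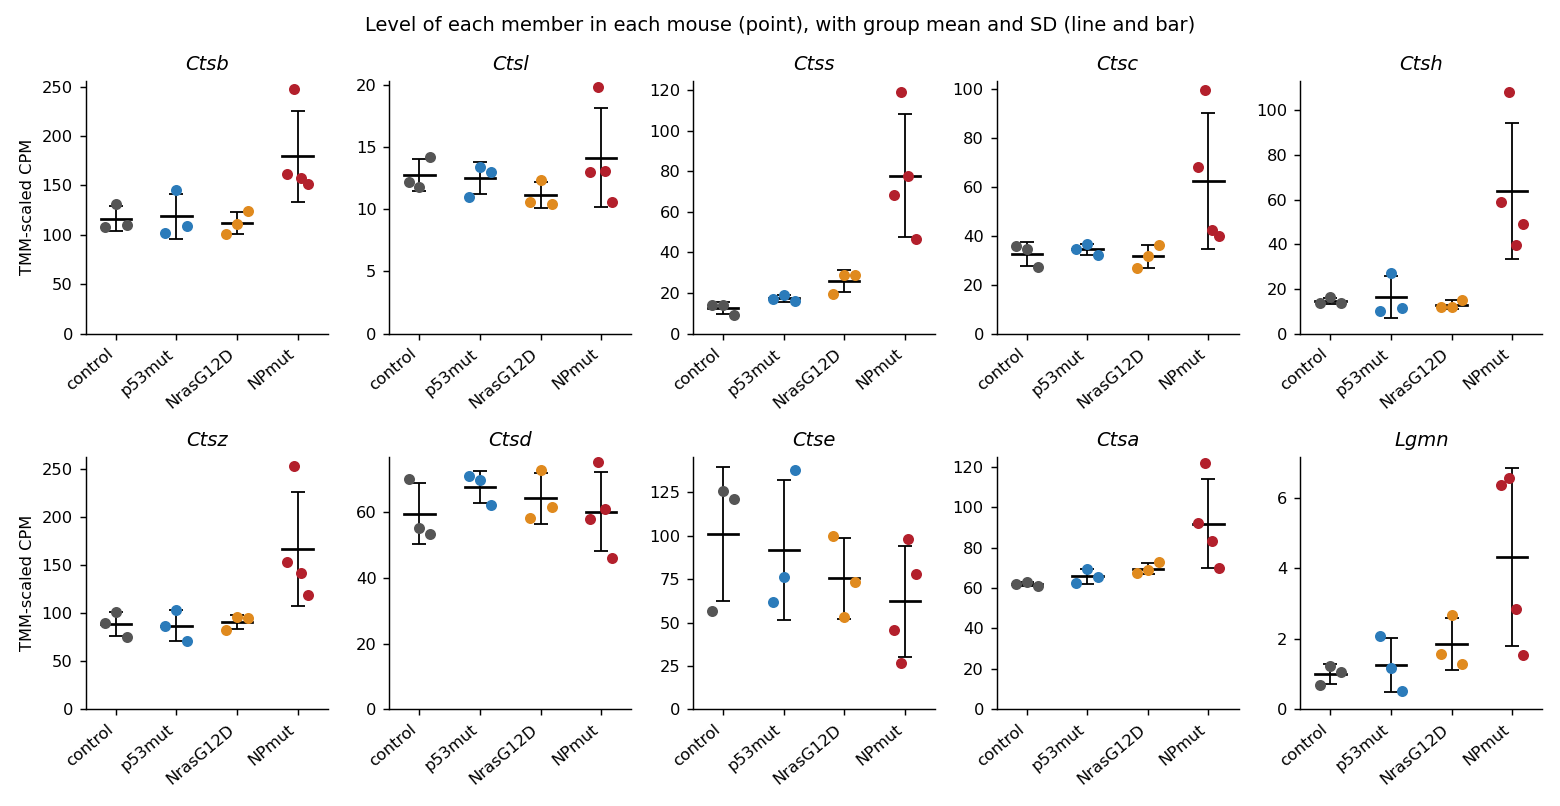
Each panel plots 1 gene, with the TMM-scaled CPM of each mouse (points, y axis from 0) by group (x axis) and the group mean and SD (line and bar). The NPmut points lie above all control points for *Ctsb*, *Ctss*, *Ctsc*, *Ctsh*, *Ctsz*, *Ctsa*, and *Lgmn*, and overlap them for *Ctsl*, *Ctsd*, and *Ctse*.

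*Ctss*, on chromosome 3 (95526786 to 95556403, plus strand, GRCm38), encodes cathepsin S, the endopeptidase that completes the cleavage of the invariant chain in antigen-presenting cells. It had 14.2, 14.3, and 8.97 CPM in the control mice, 16.9, 19, and 16 in the p53mut mice, 19.5, 28.7, and 29.1 in the NrasG12D mice, and 68.2, 119, 77.6, and 46.5 in the NPmut mice. The 4 groups did not overlap and stood in this order from low to high. The NPmut level was 6.25-fold that of controls, with a log2 fold change of 2.64 ± 0.287 (SE) and an adjusted p-value of 0.000169, the largest fold change of the 10 genes. *Ctss* was also higher in NPmut than in NrasG12D mice (log2 fold change 1.6 ± 0.272, adjusted p = 0.00351) and than in p53mut mice (2.17 ± 0.281, adjusted p = 0.000597).

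*Ctsb*, on chromosome 14, encodes cathepsin B, an abundant protease with both endopeptidase and dipeptidase activity. Its level was 108, 131, and 110 CPM in control, 102, 145, and 109 in p53mut, 101, 111, and 124 in NrasG12D, and 162, 248, 157, and 151 in NPmut mice. NPmut mouse 2 stood apart from the other NPmut mice, and all 4 lay above the mice of the other groups. The log2 fold change against control was 0.63 ± 0.174 (adjusted p = 0.0325), and *Ctsb* was higher in NPmut mice than in both single mutants, by 0.68 ± 0.175 over NrasG12D (adjusted p = 0.0247) and 0.6 ± 0.174 over p53mut (adjusted p = 0.0421). The exons of *Ctsb* share 774 bases with *Fdft1* on the opposite strand, a gene with 128 to 436 counts per library against 1382 to 6429 for *Ctsb*.

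*Ctsl*, on chromosome 13, encodes cathepsin L, a broad endopeptidase of most tissues. It had 12.2, 11.8, and 14.2 CPM in control and 13, 19.8, 13.1, and 10.6 in NPmut mice, and the groups overlapped. Its log2 fold change of 0.16 ± 0.193 did not pass the test (adjusted p = 0.662). The 3 papain-like endopeptidases thus ran from 2.64 for *Ctss* to 0.16 for *Ctsl* on the log2 scale.

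Among the exopeptidases, *Ctsh* on chromosome 9 encodes cathepsin H, an aminopeptidase. It had 13.9, 16.3, and 13.7 CPM in control, 10.3, 27.1, and 11.5 in p53mut, 11.8, 11.9, and 15.1 in NrasG12D, and 58.8, 108, 39.5, and 49.2 in NPmut mice. All NPmut mice lay above all others, and p53mut mouse 2 was the highest of the rest. The NPmut level was 4.38-fold that of controls (log2 fold change 2.13 ± 0.376, adjusted p = 0.00379), and *Ctsh* had the largest of the 10 differences from NrasG12D mice, at 2.31 ± 0.381 (adjusted p = 0.00357), with 1.98 ± 0.375 over p53mut mice (adjusted p = 0.00572).

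*Ctsc*, on chromosome 7 (88278085 to 88310888, plus strand), encodes cathepsin C, the dipeptidyl peptidase that activates the serine proteases of neutrophil and lymphocyte granules. It had 35.9, 34.7, and 27 CPM in control and 67.9, 99.5, 42.3, and 40 in NPmut mice, so that NPmut mice 3 and 4 lay close above the controls and mice 1 and 2 further up. The log2 fold change was 0.94 ± 0.261 (adjusted p = 0.0333). Over NrasG12D mice (26.9 to 36.2 CPM) *Ctsc* was higher by 0.99 ± 0.262 (adjusted p = 0.031), while the difference of 0.86 ± 0.261 from p53mut mice (32.2 to 36.5 CPM) missed the threshold (adjusted p = 0.052), with every NPmut mouse above every p53mut mouse.

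*Ctsz*, on chromosome 2, encodes cathepsin Z, a carboxypeptidase, and had the highest RPKM of the 10 genes in all 4 groups. Its level was 89.9, 101, and 75.7 CPM in control, 87.2, 103, and 71 in p53mut, 82.8, 96.1, and 94.9 in NrasG12D, and 153, 254, 142, and 119 in NPmut mice. The 9 mice of the other groups all lay below the 4 NPmut mice. The log2 fold change was 0.91 ± 0.218 against control (adjusted p = 0.0162), 0.87 ± 0.218 against NrasG12D (adjusted p = 0.0231), and 0.94 ± 0.218 against p53mut mice (adjusted p = 0.0147).

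Neither aspartic endopeptidase was called. *Ctsd*, on chromosome 7 (142375911 to 142388038, minus strand), encodes cathepsin D, a main endopeptidase of lysosomes. Its exons share 808 of 2351 bases with *Gm49369* on the same strand, a gene with 0 counts in every library, and whether shared reads were dropped in counting, which would lower the level of *Ctsd*, was not tested. It had 70.2, 55.2, and 53.3 CPM in control and 57.9, 75.4, 60.9, and 46.1 in NPmut mice, with a log2 fold change of 0.01 ± 0.151 (adjusted p = 0.963). *Ctse*, on chromosome 1, encodes cathepsin E, an aspartic protease of endosomes that blood and gut cells make. It had 56.6, 126, and 121 CPM in control, 61.8, 76, and 138 in p53mut, 99.6, 53.2, and 73.4 in NrasG12D, and 45.7, 26.4, 98.3, and 78.2 in NPmut mice. These groups overlapped, and *Ctse* was the most uneven of the 10 genes within the control group, where its SD was 38.8 CPM around a mean of 101. Its log2 fold change of −0.71 ± 0.448 did not pass the test (adjusted p = 0.359).

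*Ctsa*, on chromosome 2, encodes cathepsin A, the protective protein of beta-galactosidase and neuraminidase. It had 62, 62.8, and 61 CPM in control, 62.4, 69.6, and 65.5 in p53mut, 67.5, 68.8, and 72.8 in NrasG12D, and 92.2, 122, 83.1, and 70 in NPmut mice, with the lowest NPmut mouse between NrasG12D mice. The log2 fold change was 0.57 ± 0.145 against control (adjusted p = 0.0204) and 0.48 ± 0.145 against p53mut mice (adjusted p = 0.0475), and the difference of 0.4 ± 0.144 from NrasG12D mice did not pass the test (adjusted p = 0.101).

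*Lgmn*, on chromosome 12, had the fewest counts of the set, 12 to 21 in the control and 18 to 170 in the NPmut libraries, so that its folds are the least precise. It had 0.69, 1.24, and 1.07 CPM in control, 2.07, 1.18, and 0.521 in p53mut, 1.56, 2.69, and 1.29 in NrasG12D, and 6.37, 6.56, 2.84, and 1.53 in NPmut mice. NPmut mice 1 and 2 were far above the rest, and mouse 4 lay inside the range of both single mutants. The log2 fold change was 2.12 ± 0.548 against control (adjusted p = 0.0221) and 1.81 ± 0.544 against p53mut mice (adjusted p = 0.0477), and 1.24 ± 0.519 against NrasG12D mice was not called (adjusted p = 0.157).

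Each single mutant was compared with control mice, which asks what either mutation did alone. In NrasG12D mice, 0 of the 10 genes were called by edgeR, where 0.00562% of all genes tested were called higher, and 1 of the 10 had an unadjusted p-value under 0.05 (1642 of all 17795 did). DESeq2, which was given all 54838 genes and called 111 higher and 36 lower, called 1 of the 10. That gene in both cases was *Ctss*, whose NrasG12D mice all lay above the controls, with a 2.06-fold level, a log2 fold change of 1.04 ± 0.289, and adjusted p-values of 0.236 in edgeR and 0.042 in DESeq2. *Ctss* was also called with only NrasG12D and control libraries in the fit (adjusted p = 0.0338) and with the replicate number as a block (adjusted p = 0.0454). *Ctsa* and *Lgmn* were the other genes whose NrasG12D mice all exceeded the controls, which held for 10.9% of all genes tested. The median log2 fold change of the 10 genes was 0 and that of all genes −0.01.

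In p53mut mice, edgeR called 0 of the 10 genes, DESeq2 called 0, and 0 had an unadjusted p-value under 0.05. Of all genes tested, 0% were called, with 415 at an unadjusted p-value under 0.05. *Ctss* again had the largest log2 fold change, 0.47 ± 0.29, and was the only one of the 10 whose p53mut mice all lay above the controls, which 5.47% of all genes did. Since p53mut and control mice of the same number deviated together, they were also fitted alone with the number as a block, which called 0 of the 10 genes and gave *Ctss* an adjusted p-value of 0.283. That fit called 23 genes higher and 33 lower of 16685 tested.

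NPmut mice were also set against each single mutant, both of which had been injected with pI:pC. The NPmut libraries are shared by these comparisons and by that with control mice, so the sets of calls are not independent of each other. Over NrasG12D mice, 5 of the 10 genes were higher (*Ctsb*, *Ctsc*, *Ctsh*, *Ctss*, and *Ctsz*) and 0 lower, where 3.92% of all genes tested were higher and 4.97% lower. In these 5 every NPmut mouse lay above every NrasG12D mouse, as for 9.34% of all genes. Over p53mut mice, 6 were higher (*Ctsa*, *Ctsb*, *Ctsh*, *Ctss*, *Ctsz*, and *Lgmn*) and 0 lower, where 4.81% of all genes were higher and 5.14% lower. Every NPmut mouse lay above every p53mut mouse in 6 genes, as for 9.1% of all genes, with *Ctsc* in place of *Lgmn*. The calls other than *Ctss* and *Ctsh* depended on single libraries. Over NrasG12D mice only *Ctss* and *Ctsh* were called without NrasG12D mouse 1 or 2, and 3 genes without mouse 3. Over p53mut mice only these 2 were called without p53mut mouse 3, and 3 genes without p53mut mouse 1, without NPmut mouse 1, or without any 1 of the control or NrasG12D mice. With only the compared groups in the fit, *Ctss* and *Ctsh* were the 2 genes called in either comparison. Calls over all genes fell in these fits too. Over NrasG12D mice 697 genes higher became 236, 264, and 382 without NrasG12D mouse 1, 2, or 3, and 274 with only the compared groups. Over p53mut mice 856 became 287 without p53mut mouse 3, 348 without p53mut mouse 1, 609 without NPmut mouse 1, and 316 with only the compared groups. Without 1 control or NrasG12D mouse they were 727 to 753.

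The interaction, NPmut minus p53mut minus NrasG12D plus control on the log2 scale, asks whether the NPmut level departed from the sum of both single-mutant differences. edgeR called 0 of the 10 genes, where 0.506% of all genes were called higher (0.405% with a size of at least 2-fold) and 1.23% lower, and 5 had an unadjusted p-value under 0.05, as 2859 of all 17795 genes did. *Ctsh* came closest, with 2.15 ± 0.534 and an adjusted p-value of 0.0606, and it was the 1 gene of the 10 that DESeq2 called (adjusted p = 0.00105). DESeq2 was given all 54838 genes and called 344 higher and 524 lower. edgeR called *Ctsh* without p53mut mouse 2 (adjusted p = 0.00925), the p53mut mouse in which it was highest, and without NPmut mouse 3 (adjusted p = 0.0246). Calls over all genes rose in both fits, from 90 higher and 219 lower to 202 and 260 without p53mut mouse 2 and to 244 and 409 without NPmut mouse 3. *Ctss* had an interaction of 1.13 ± 0.392 (adjusted p = 0.169), *Ctsz* 0.9 ± 0.314 (adjusted p = 0.169), and *Ctsc* 0.91 ± 0.378 (adjusted p = 0.256).

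**Figure D3:**
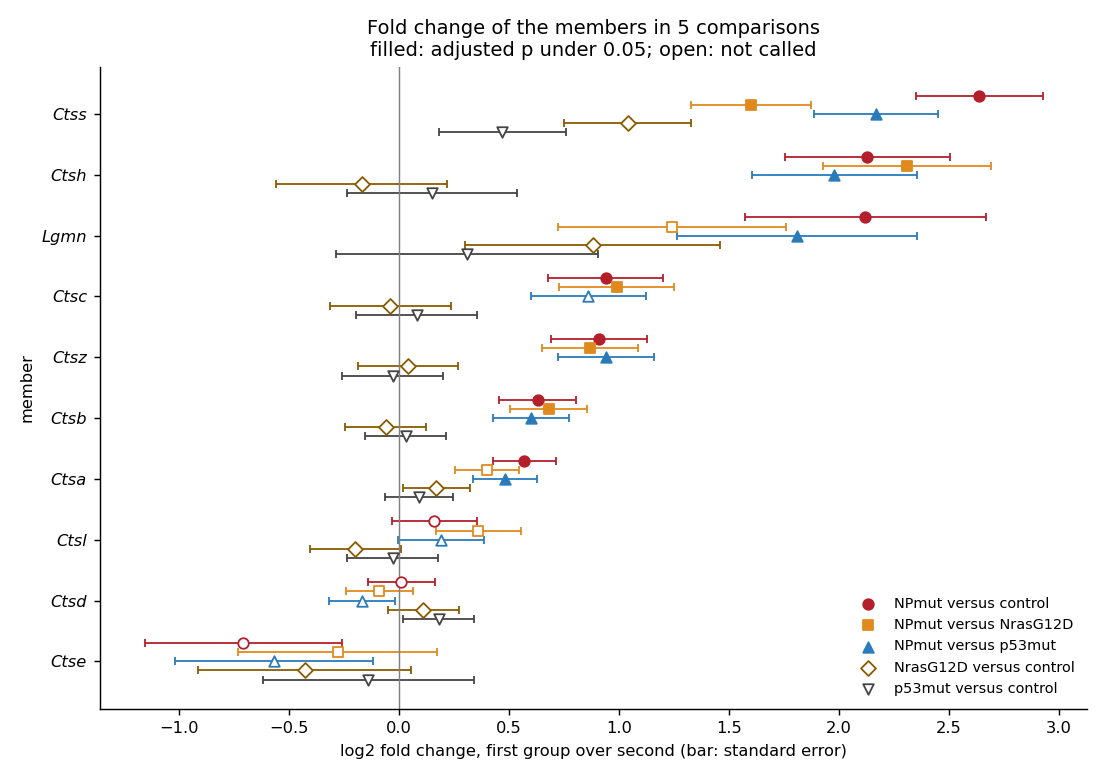
Log2 fold change (x axis, with its standard error as a bar) of each gene (y axis) in 5 comparisons, with filled symbols for an adjusted p-value under 0.05. The 3 comparisons with NPmut mice lie between 1.24 and 2.64 for *Ctss*, *Ctsh*, and *Lgmn*, and the single-mutant comparisons have open symbols throughout.

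The NPmut mice differed among themselves in an ordered way. Mouse 2 had the highest CPM for 9 of the 10 genes and mouse 4 the lowest for 8, and the highest mouse exceeded the lowest 1.65-fold for *Ctsb*, 2.56-fold for *Ctss*, and 4.29-fold for *Lgmn*. *Ctse* ran the other way, with its lowest level in mouse 2 and its highest in mouse 3, 3.73-fold apart. Mouse 2 was also the library with the most counts and mouse 4 that with the fewest, and the part of library size in this order was not tested. The same 7 genes were called against control without NPmut mouse 2, 3, or 4, and without mouse 1 the calls of *Ctsc* and *Lgmn* were lost. In control mice, mouse 2 was highest for 7 of the 10 genes, as was mouse 2 among p53mut mice.

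The likeness of profiles was measured as the root mean square difference, over the 13 mice, between the log2 differences of 2 genes from their control means, which is small when both move by like amounts in the same mice. Among the 10 genes the closest pair was *Ctsa* and *Ctsb* (0.167 log2 units), followed by *Ctsc* and *Ctsz* (0.171) and *Ctsb* and *Ctsz* (0.199), and the farthest was *Ctse* and *Ctss* (2.17). Among the other tested genes that averaged 4 or more in log2 CPM, those nearest to *Ctss* were *Tpm4* (0.332), an actin-binding tropomyosin gene, and *Cd74* (0.443), whose product is a substrate of cathepsin S. Nearest to *Ctsh* were *Slpi* (0.225), an inhibitor of neutrophil serine proteases, and *Mefv* (0.317), which encodes pyrin. *Ctsz* was nearest to *Napsa* (0.0969), the gene of an aspartic protease, and *Sh3bgrl3* (0.114), *Ctsb* to *Hmga1b* (0.0913) and *Lamp1* (0.0937), a lysosomal membrane glycoprotein, *Ctsc* to *Degs1* (0.127) and *Asah1* (0.149), acid ceramidase, *Ctsa* to *Arpc5* (0.0829) and *Rnf130* (0.0954), and *Lgmn* to *Lgals1* (0.456) and *H2-Ab1* (0.495), an MHC class II chain. Likeness carries no test, and it takes in the spread of low counts.

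Genes around the cathepsins were read from 10 lists of 130 genes, of which 109 were tested. In NPmut against control mice, 31 were higher and 2 lower, where 5.38% of all genes tested were called higher and 5.54% lower. The counts of the single lists below stand beside the same shares. The lists were chosen with earlier results known, so this is a description and not a test. The 14 other cathepsin genes gave no call. Of these, 4 were tested, *Ctsf* (−0.13 on the log2 scale), *Ctsg* (0.48), *Ctso* (−0.03), and *Ctsw* (0.54), with 1 at an unadjusted p-value under 0.05 and 0 called by DESeq2. The osteoclast cathepsin *Ctsk* reached at most 0.185 CPM in any mouse. Of the granule serine proteases that cathepsin C activates, edgeR called 0 of the 5 tested, with 2 at an unadjusted p-value under 0.05 and 1 called lower by DESeq2. *Elane*, neutrophil elastase, one of them, had 987 to 1350 CPM in control and 1210 to 2590 in NPmut mice.

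Of the genes for inhibitors and sorting, *Cst3*, which encodes the secreted inhibitor cystatin C, rose by 1.03 ± 0.278 (adjusted p = 0.0308), 1 of 3 cystatins and stefins tested, all 3 of which DESeq2 called higher, although its NPmut and control mice overlapped. Of 8 genes of the sorting routes, *Lrp1*, an endocytic receptor, rose by 1.43 ± 0.274 (adjusted p = 0.00527) and *Gnptab*, which builds the mannose-6-phosphate tag, by 0.36 ± 0.104 (adjusted p = 0.0409). *Igf2r*, the large mannose-6-phosphate receptor, fell from 39.9 ± 9 to 12.9 ± 6.61 CPM, a log2 fold change of −1.65 ± 0.374 (adjusted p = 0.0146).

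Among 37 other genes of lysosomal hydrolases and their activator proteins (*Psap* and *Gm2a*), 9 rose and 0 fell, with a median log2 fold change of 0.26. Among those with the smallest adjusted p-values were *Scpep1*, a serine carboxypeptidase gene (12.8 ± 0.915 to 41.5 ± 14.1 CPM, log2 fold change 1.7, adjusted p = 0.00053), *Man2b1*, lysosomal alpha-mannosidase (0.64, adjusted p = 0.0014), and *Psap*, the precursor of the saposins (162 ± 1.6 to 369 ± 103 CPM, 1.19, adjusted p = 0.0024). Of 18 genes listed for the lysosomal membrane, with *Npc2* of the lumen counted among them, 7 rose and 0 fell, with a median of 0.48. *Cd68*, the macrophage glycoprotein of the LAMP family, rose by 1.39 ± 0.172 (adjusted p = 0.000329), *Slc29a3*, a nucleoside transporter, by 0.62 ± 0.113 (adjusted p = 0.00351), *Laptm5* by 0.58 ± 0.126 (adjusted p = 0.00944), and *Npc2*, a cholesterol carrier of the lumen, by 0.9 ± 0.22 (adjusted p = 0.018). Of 17 tested subunits of the vacuolar ATPase, which acidifies the lysosome, *Tcirg1* (0.82 ± 0.164, adjusted p = 0.00554) and *Atp6v0c* (0.91 ± 0.247, adjusted p = 0.0297) rose and *Atp6v0a2* fell by 0.37 on the log2 scale (adjusted p = 0.0294). Of the MiT/TFE factors, which drive lysosomal genes, *Tfeb* rose from 10.6 ± 1.05 to 17.3 ± 0.497 CPM (0.71 ± 0.147, adjusted p = 0.00703), 1 of 4 tested.

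Of 9 genes of MHC class II processing, the route in which cathepsins S and L act, 7 rose, with a median log2 fold change of 1.46. *Ifi30*, a lysosomal thiol reductase, rose by 1.66 ± 0.186 (adjusted p = 0.000155), *H2-Eb1* by 2.64 ± 0.318 (adjusted p = 0.000268), *H2-Aa* by 2.91 ± 0.39 (adjusted p = 0.00053), and *Cd74*, the invariant chain, by 2.88 ± 0.433 (adjusted p = 0.00159), from 7.96 ± 2.15 to 58.4 ± 27.1 CPM. In NrasG12D mice *Cd74* was at 23.4 ± 7.71 CPM, between the other groups as *Ctss* was, with a log2 fold change of 1.55 over control that was not called (adjusted p = 0.247). Of 5 genes for endosomal TLRs and their chaperone, *Unc93b1*, the chaperone, rose by 1.65 ± 0.203 (adjusted p = 0.000345) and *Tlr9*, a receptor that cathepsins cleave, by 1.76 ± 0.438 (adjusted p = 0.0187). In NrasG12D mice edgeR called 0 of the 109 genes, with 14 at an unadjusted p-value under 0.05 and 4 called higher by DESeq2, beside the 1642 and 111 of all genes given above. In p53mut mice it called 0, with 2 at an unadjusted p-value under 0.05 and 0 called by DESeq2.

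**Figure D4:**
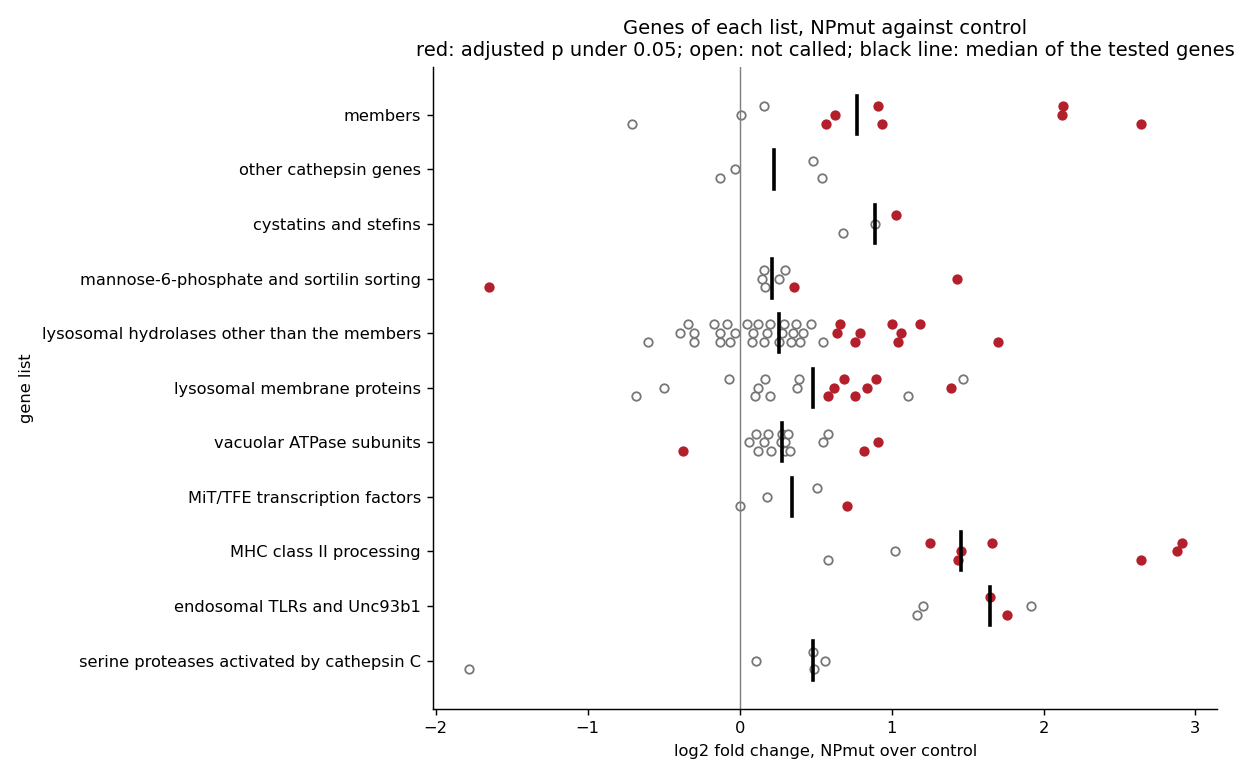
Log2 fold change of NPmut over control (x axis) for each tested gene of the 10 proteases and of 10 related lists (y axis), in red for an adjusted p-value under 0.05, with a black line at the median of each list. Medians run from 0.22 to 1.65, and 9 of the 37 genes of other hydrolases and their activators and 7 of the 9 MHC class II genes are red.

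Markers of monocytes and dendritic cells, which are rich in several of these proteases, moved with the NPmut group. The 18 monocyte and macrophage markers summed to 634 to 723 CPM in control, 564 to 1030 in p53mut, 513 to 790 in NrasG12D, and 1510 to 2590 in NPmut mice, and 5 of the 16 tested rose and 0 fell. The markers weigh unequally in this sum. *F13a1*, one of the 5, reached the most counts, 3956 to 30794 per library, and no other marker of the list passed 11017. *Csf1r*, the receptor of the monocyte growth factor, had 51.9 to 60.4 CPM in control and 121 to 184 in NPmut mice. Among markers of mature macrophages, *C1qa* stayed at or under 0.926 CPM in every mouse. *Adgre1* had 1.83 to 4.26 CPM in control and 4.29 to 11.9 in NPmut mice, with a log2 fold change of 1.2 that was not called (adjusted p = 0.0546). The negative log2 fold changes of the list were those of *C1qb* (−1.53), *C1qc* (−1.2), *Vcan* (−0.61), and *Mrc1* (−0.58), none of them called. The 11 dendritic cell markers summed to 233 to 263 CPM in control, 243 to 297 in p53mut, 331 to 433 in NrasG12D, and 590 to 772 in NPmut mice. The counts of this list lay mainly in *Irf8* (1476 to 15972 per library) and *Flt3* (881 to 4700), and no other marker of it passed 637. Of 9 tested, 5 rose, *Irf8* and *Flt3* among them, and 1 fell, *Zbtb46* (log2 fold change −1.09, adjusted p = 0.0265). *Itgax* had 0.408 to 2.13 CPM in control and 3.39 to 6.72 in NPmut mice.

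The other marker lists moved in different directions. Of 8 HSPC markers 5 fell and 0 rose, and the sum went from 2410 to 2810 CPM in control to 1850 to 2250 in NPmut mice. Of 11 tested erythroid markers 3 fell and 0 rose, and all 6 tested megakaryocyte markers fell. The summed neutrophil markers overlapped, with 11300 to 14100 CPM in control and 13000 to 22000 in NPmut mice, and 1 of 11 tested rose. Of the mast cell and basophil markers 1 of 6 rose and 2 fell, and no B, T, or NK lymphoid marker was called. Of the stromal, endothelial, and osteoclast markers 1 of 4 tested rose and 2 fell, with a median log2 fold change of −2.27. Their sum of 86.7 to 105 CPM in control and 126 to 157 in NPmut mice lay mainly in *Pecam1*. That gene had 1209 to 3857 counts per library and rose by 0.65 (adjusted p = 0.00211), and no other marker of the list passed 129 counts. *Col1a2* (−2.95, adjusted p = 0.00527) and *Kdr* (−2.91, adjusted p = 0.019) fell. The p53mut mouse with the highest *Ctsh*, mouse 2 at 27.1 CPM, also had the highest monocyte sum outside the NPmut group, 1030 CPM. The NPmut mouse highest for *Ctss* and *Ctsh*, mouse 2, had the highest sum of monocyte markers, 2590 CPM. The orders were not the same throughout, since NPmut mouse 3 had more *Ctss* than mouse 1 (77.6 and 68.2 CPM) at a lower monocyte sum (1660 and 1890), and mouse 4 more *Ctsh* than mouse 3 (49.2 and 39.5 CPM) at a lower sum (1510 and 1660). NrasG12D mice, all above the controls for *Ctss*, overlapped them in the monocyte sum. They lay above the controls in the dendritic sum, which lies mainly in *Irf8* and *Flt3*. The part of these cell types in the cathepsin levels was not tested.

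**Figure D5:**
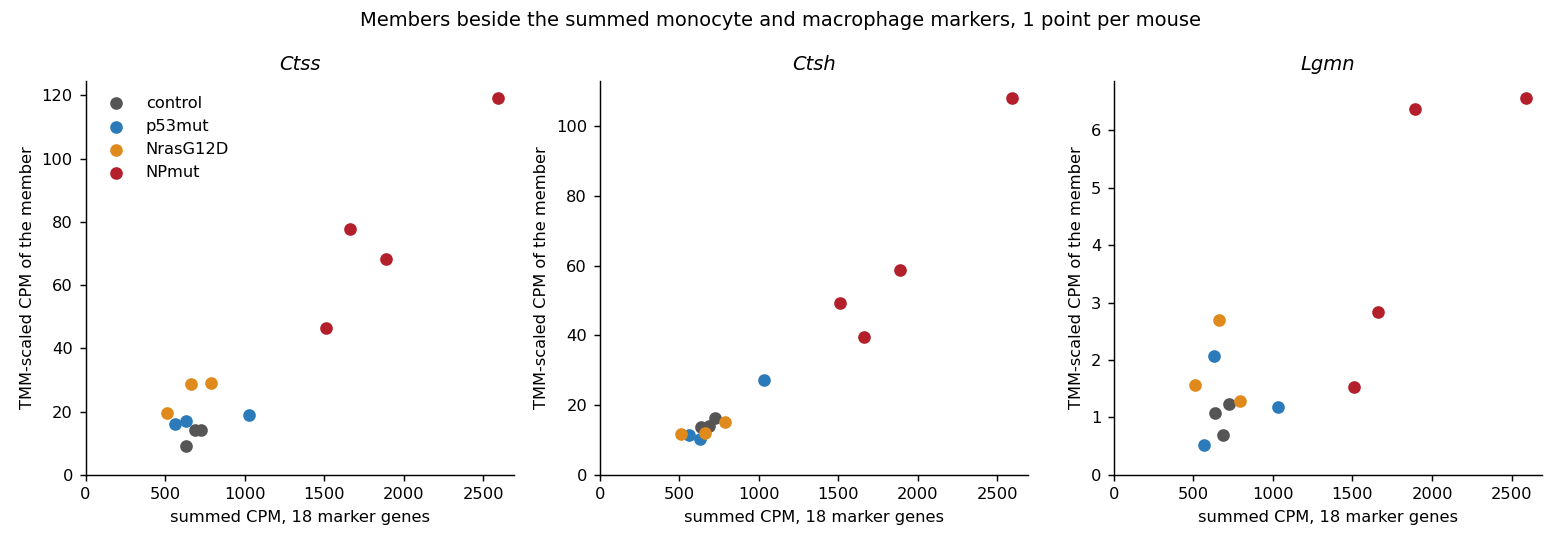
TMM-scaled CPM of *Ctss*, *Ctsh*, and *Lgmn* (y axes) against the summed CPM of 18 monocyte and macrophage markers (x axes), with 1 point per mouse colored by group. The 4 NPmut mice lie at 1510 to 2590 CPM of markers, to the right of all other mice.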

How the data were processed

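Raw read counts per gene, made and deposited by the authors in 1 table, were used for 3 control, 3 p53mut, 3 NrasG12D, and 4 NPmut mice, and columns were assigned by the mouse code that labels and columns share. The submitters' processing notes name STAR 2.6.1d, R 3.6.1, DESeq2 1.26.0, and GRCm38.p6 without roles, and the counting program and its strand setting are not given in the sources used here. Libraries were made with a stranded kit for total RNA. Exons of *Ctsb*, *Ctsa*, *Ctsz*, and *Ctsl* overlap genes on the opposite strand, and those of *Ctsd* and *Ctsl* genes on the same strand. Gene names, exonic lengths, and coordinates came from GENCODE M21, which holds 54809 of the 54838 identifiers. The other 29 had 0.0032% of the counts.

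Counts were tested with edgeR 4.0.16 in R 4.3.3, with a robust quasi-likelihood fit of all 13 libraries, a mean per group, TMM factors, and the filter filterByExpr. Of 44944 genes with any count, 17795 passed it. Log2 CPM used a prior count of 2. Every p-value rests on the spread between mice within groups. In the fit of all 13 libraries this spread was estimated over all 4 groups and drawn toward that of other genes. Mice outside a comparison therefore also bear on its p-values.

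The members, lists, and tests were chosen with earlier results of these data known. Named genes were all 10 members, up to 4 called genes of each pathway list by smallest adjusted p-value, 12 fixed markers, and the 2 genes nearest to each called member, of which a few are not reported here. Single further genes (*Ctsf*, *Ctsg*, *Ctso*, and *Ctsw*) were named because their list was small. Others (*F13a1*, *Irf8*, *Flt3*, *Zbtb46*, *Pecam1*, *Col1a2*, *Kdr*, *C1qb*, *C1qc*, *Mrc1*, and *Vcan*) were named because they make up much of a marker sum or moved against it. Each library was left out in turn. The tests were also repeated with DESeq2 1.42.0, with size factors by RLE or none, without the filter or with at least 10 counts required in every library, on the compared groups alone, and with the replicate number, sex, or receptor reads in the model. Same-numbered control and p53mut libraries deviated together (r of 0.152 to 0.166 over genes, in each of 3 pairs). Some libraries of different number correlated more strongly, such as control 3 and NPmut 1 (r of 0.239). The labels do not say what the number marks. In both the control and the p53mut group, mouse 1 was the one with reads from Y-linked genes (167 and 176 CPM). Mouse 2 had the most receptor reads in both groups (191 and 138 CPM) and mouse 3 the fewest (103 and 58.9 CPM). The part of these in the correlation was not tested.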

Additional observations from a re-analysis of the deposited data

Results flagged for a closer look

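*Ctsb* in NPmut mice was the 1 value of 11 looked at (the CPM of each of the 10 genes and their summed RPKM over the 4 NPmut mice) in which a single mouse stood far from the rest. Mouse 2 had 248 CPM and the other NPmut mice 151 to 162, so that the gap to the nearest mouse took 0.881 of the group's range, more than Dixon's critical value at the 95% level allows for 4 samples. Chance alone gives such a gap in about 1 of 20 groups. The same mouse had the highest CPM for 9 of the 10 genes, the most counts, 29124022, and the lowest TMM factor, 0.892. Without it *Ctsb* was still called against control mice.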

How the results depend on the processing

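*Ctss* and *Ctsh* were called higher in NPmut mice against control, NrasG12D, and p53mut mice under every alternative run. In NPmut against control mice the number of genes called, 7, became 2 with only the compared groups in the fit and 4 with receptor reads as a covariate, and ran from 2 (without control mouse 1 or 3) to 7 with 1 library left out. Against NrasG12D mice, 5 became 2 with only the compared groups and ran from 2 (without NrasG12D mouse 1 or 2) to 6. Against p53mut mice, 6 became 3 when plain library totals scaled the counts, 2 with only the compared groups, and ran from 2 (without p53mut mouse 3) to 7. In NrasG12D against control mice, 0 became 1 (*Ctss*) under DESeq2, with no filter on low counts, with only the compared groups, and with the replicate number as a block, and stayed at 0 with any 1 library left out. For the interaction, 0 became 1 under DESeq2 (*Ctsh*), 4 with no filter, 3 with the replicate block (*Ctsh*, *Ctss*, and *Ctsz*), and 1 with sex as a term, and ran from 0 to 1 with 1 library left out. Calls over all genes changed between these settings too. For the interaction, 90 genes higher became 451 with no filter, 190 with the replicate block, and 106 with sex as a term. The causes of these changes were not tested.

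The replicate block gave 7 calls against control (the same genes), 7 against NrasG12D (adding *Ctsa* and *Lgmn*), and 7 against p53mut mice (adding *Ctsc*). Of all genes, 1363, 1092, and 1080 were called higher there. NPmut mouse 4 is the only mouse of its number, so the block fits it exactly. That mouse, the lowest NPmut mouse for 8 of the 10 genes, is thus in effect left out of every contrast with NPmut mice, the interaction included. *Ctss* against control was 2.8 with the block and 2.81 without mouse 4. Outside the control and p53mut pair, same-numbered libraries correlated from −0.113 to 0.294. For no pair of groups do the labels say that same-numbered mice share more than the number. With library totals, the median log2 fold change of all genes in NPmut against control mice moved to −0.11, and 636 were called higher and 1350 lower in place of 958 and 986. DESeq2, which was given all 54838 genes, called 1212 and 1361. The filter on at least 10 counts in every library left *Lgmn* out. The low counts of *Lgmn* limit its precision.

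Some log2 fold changes turned in direction, and none of these was called (smallest adjusted p = 0.564). In NPmut against control mice *Ctsd* was −0.11 with library totals, −0.02 with at least 10 counts in every library, and −0.12 to 0.17 with 1 library left out, and *Ctsl* −0.06 to 0.26. In NrasG12D against control mice with receptor reads as a covariate, *Ctsb* was 0.35, *Ctsc* 0.29, *Ctsh* 0.49, and *Ctsl* 0.04, and with 1 library left out *Ctsb* ran from −0.14 to 0.03, *Ctsc* from −0.16 to 0.06, and *Ctsz* from −0.06 to 0.14. In p53mut against control mice *Ctsb* was −0.01 with library totals, *Ctsl* 0.04 and *Ctsz* 0.16 with receptor reads, and with 1 library left out *Ctsb* ran from −0.14 to 0.13, *Ctsc* from −0.03 to 0.17, *Ctse* from −0.55 to 0.08, *Ctsh* from −0.42 to 0.4, *Ctsl* from −0.09 to 0.06, *Ctsz* from −0.17 to 0.11, and *Lgmn* from −0.25 to 0.71. *Ctsd* was 0.01 with the replicate block in NPmut against NrasG12D mice (−0.23 to 0.01 with 1 library left out) and 0.11 with receptor reads against p53mut mice, where *Ctsl* ran from −0.03 to 0.29. The interaction of *Ctse* ran from −0.46 to 0.25.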

Other observations

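*Ctse* differed within groups along with reads from the Y chromosome. These reads, summed over *Ddx3y*, *Eif2s3y*, *Kdm5d*, and *Uty* and scaled by library totals, had 141 to 176 CPM in 5 mice and 0.22 to 1.38 CPM in the other 8. The mouse with Y-linked reads was the lowest of its group for *Ctse* in control (56.6 CPM against 126 and 121), p53mut (61.8 against 76 and 138), and NrasG12D mice (53.2 against 99.6 and 73.4). In NPmut mice both mice with Y-linked reads were the higher ones (98.3 and 78.2 against 45.7 and 26.4 CPM). This was seen after the values were read and was not tested.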
